A study of Mus musculus with 2 samples.

Results

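Transcripts of 8 genes of cytokine signalling were followed through the immune cells of mouse melanomas: the transcription factor genes Stat3, Stat4, Stat5a and Irf1, and the feedback inhibitor genes Socs1, Socs2, Socs3 and Cish. They were found by symbol in the deposited gene lists, and all 8 of 8 were present among 32285 genes. The tumours were grown from B16-F10, a mouse melanoma cell line, and were either knocked out for FDPS or labelled WT. FDPS encodes farnesyl diphosphate synthase, which makes isoprenoid precursors in the mevalonate pathway. Live CD45+ cells (leukocytes of the host mouse) were sorted on day 14 after injection from 3 tumours in each group. Each group gave 1 droplet single-cell library, in which the tumours cannot be told apart. The knockout was in the injected tumour cells. The strain, sex, age and genotype of the host mice, and whether each tumour line was 1 clone, were not stated in any source used here. With 1 library per group there was no test and no spread between replicates, so every difference below is between the 2 libraries and not between the 2 conditions.

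Cytokines bound to their receptors activate Janus kinases (JAKs), which phosphorylate STAT proteins; the STATs then enter the nucleus and switch on genes. STAT3 is known for signals of the interleukin-6 and interleukin-10 families, STAT4 for interleukin-12 and STAT5 for interleukin-2, interleukin-7, interleukin-15 and granulocyte-macrophage colony-stimulating factor. IRF1 is a transcription factor induced by interferon-gamma. SOCS1, SOCS2, SOCS3 and CISH are themselves induced by STATs and restrain the receptors or JAKs that activated them. In tumours, this loop is studied in T and NK cells, where it limits the response to interleukins, and in macrophages and dendritic cells (DCs), where it limits the response to interferon.

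STAT dimers bind a short palindrome, and stretches before the starts of Irf1, Socs3 and Socs1, which STATs are known to induce, are printed because their levels are set side by side in several cell types. The RefSeq promoter table on GRCm38.p6 held an entry for 7 of the 8 genes, all but Socs2. In the 250 bases before each annotated start, the letters TTCNNNGAA were searched on both strands, which for this palindrome give the same match, as was the same pattern with 1 more base in its gap. The first pattern was present in a window of Irf1 and in that of Socs3 and in no window of Stat3, Stat4, Stat5a, Socs1 or Cish. The second was in none of them. Of 32851 windows of the same length in the table, 7.02% held the first pattern and 5.85% the second. The windows are chr11:53769764-53770013 on the plus strand for Irf1, chr11:117969367-117969616 on the minus strand for Socs3 and chr16:10785537-10785786 on the minus strand for Socs1. Capitals mark a match, which begins 90 bases before the start of Irf1 and 154 bases before that of Socs3 in the promoter table. These starts differ from the GENCODE gene starts given below for some genes. By the GENCODE spans, the window of Socs3 with its match lies inside the gene and not before it. The windows of Cish and Stat5a, and a further window of Stat4 and of Irf1, also lie inside their genes.
Irf1: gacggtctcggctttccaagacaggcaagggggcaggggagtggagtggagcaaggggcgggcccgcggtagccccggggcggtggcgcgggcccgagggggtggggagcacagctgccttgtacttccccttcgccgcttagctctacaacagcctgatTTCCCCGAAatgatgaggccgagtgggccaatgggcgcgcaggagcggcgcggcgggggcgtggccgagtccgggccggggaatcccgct
Socs3: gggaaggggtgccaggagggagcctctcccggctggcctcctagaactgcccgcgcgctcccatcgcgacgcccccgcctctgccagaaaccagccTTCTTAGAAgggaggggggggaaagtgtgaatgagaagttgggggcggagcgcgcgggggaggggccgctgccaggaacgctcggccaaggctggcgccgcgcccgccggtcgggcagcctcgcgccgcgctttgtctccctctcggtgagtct
Socs1: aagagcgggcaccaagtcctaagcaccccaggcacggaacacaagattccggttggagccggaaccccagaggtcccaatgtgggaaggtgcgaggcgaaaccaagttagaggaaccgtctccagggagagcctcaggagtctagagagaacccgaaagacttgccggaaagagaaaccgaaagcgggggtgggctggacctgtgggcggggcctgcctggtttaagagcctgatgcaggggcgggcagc
These matches describe letters and show no binding. The window of Socs1 has no capitals, and it says only that this pattern is not within it.

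In GENCODE vM21 on GRCm38 the genes lie at chr11:100885098-100939540 (Stat3, minus strand), chr1:51987148-52107189 (Stat4, plus), chr11:100859351-100885169 (Stat5a, plus), chr11:53770014-53778374 (Irf1, plus), chr16:10782240-10785536 (Socs1, minus), chr10:95385362-95417180 (Socs2, minus), chr11:117966079-117970047 (Socs3, minus) and chr9:107296026-107302784 (Cish, plus). Stat3 and Stat5a are neighbours whose ends overlap by 72 bases on opposite strands. Stat5a also has a near-identical neighbour, Stat5b, so the split of reads between that pair is uncertain. An antisense gene, Gm17041, overlaps Cish by 1459 bases and was counted separately.

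The knockout library held 9130 cell barcodes with 127186298 unique molecular identifiers (UMIs, each standing for 1 captured transcript) and the WT library 10882 barcodes with 208936136 UMIs. After filters, 8062 and 8595 cells remained, and 30 barcodes occurred in both libraries. Cell types were gated on fixed marker genes, none of which is among the 8 genes. The gate left 17.3% of knockout and 13.2% of WT cells without a name. A UMI of Ptprc, the gene of CD45, was found in 97.8% and 89.6% of retained cells. Cells with melanoma markers numbered 17 and 389; in them Fdps was at 89.3 and 400.4 CPM (counts per 1000000 UMIs). Fdps was also lower in host cells of the knockout library, which the labels do not describe as knocked out, at 28.4 and 78.6 CPM in CD8 T cells and 22.6 and 47.0 CPM in monocytes and macrophages. Levels are UMIs summed over the cells of a type and library, as CPM, with exact Poisson intervals at 95% that cover counting error only. A sum cannot tell fewer expressing cells from less RNA per cell. A difference is the log2 ratio of CPM plus 5, knockout over WT, and is below 0 where the knockout library had less. It was called past 1.5-fold, for genes at 10 CPM or more in the mean of both libraries and cell types with at least 100 cells in each. Those types were CD8 T cells (1954 knockout and 1786 WT cells), NK cells (660 and 221), B cells (118 and 141), type 1 conventional DCs (270 and 130), type 2 conventional DCs (378 and 132), mature DCs (107 and 158), monocytes (456 and 1157) and macrophages (655 and 2863). CD4 T cells (746 and 57), regulatory T cells (169 and 93) and neutrophils (79 and 105) are described by their levels alone.

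Stat3 was lower in the knockout library in CD8 T cells, NK cells and mature DCs, and within 1.5-fold in the other 5 types. In CD8 T cells the knockout library had 334.7 CPM (328.6 to 340.8; 11698 UMIs) and the WT library 589.7 CPM (582.9 to 596.5; 28677 UMIs), a 1.76-fold lower level (counting interval 1.72 to 1.80). NK cells had 261.8 CPM (250.6 to 273.5) and 468.4 CPM (438.6 to 499.8), a difference of 1.79-fold. The counting intervals of the libraries did not overlap in either lymphocyte type. Mature DCs, the migratory DCs marked by Ccr7 and Fscn1, had the highest Stat3 level of all gated types in both libraries, at 579.5 CPM (541.4 to 619.7) and 872 CPM (834.6 to 910.6). Their difference, 1.51-fold lower, lay just past the threshold and was -0.56 with doublets kept, just inside it. Elsewhere the log2 ratio ran from 0.02 in monocytes to 0.40 in type 1 conventional DCs. Below mature DCs, the WT library placed CD8 T cells (589.7 CPM) and NK cells (468.4 CPM) next. In the knockout library neutrophils (539.1 CPM, 470.8 to 614.5) overlapped mature DCs, followed by CD4 T cells (395.7 CPM, 383.8 to 408.0).

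Stat4 differed in opposite directions in different cells. It was higher in knockout CD8 T cells, 439.6 CPM (432.7 to 446.6) against 232.7 CPM (228.4 to 237.0), a log2 ratio of 0.90. In mature DCs it was lower, 453.7 CPM (420.1 to 489.4) against 1737 CPM (1684 to 1791), 3.83-fold (3.53 to 4.16). In the WT library mature DCs stood above every other gated type, with NK cells next at 686.8 CPM (650.5 to 724.5). In the knockout library NK cells stood highest at 995.0 CPM (972.9 to 1017), followed by gamma-delta T cells at 924 CPM, whose intervals overlapped those of NK cells. The number of mature DCs with a Stat4 transcript differed as well. With each cell thinned to 3000 UMIs, 48.5% (exact binomial 38.6 to 58.6) of 103 knockout and 90.4% (84.6 to 94.5) of 156 WT mature DCs had one, and 59.8% and 96.2% before thinning. The corresponding thinned shares in type 1 conventional DCs, which had little Stat4, were 3.44% and 0.794%. The makeup of the mature DC gate differed too. Its 4 markers of type 1 conventional DCs summed to 265.8 CPM in the knockout and 80.6 CPM in the WT library, and its 6 monocyte markers to 58.2 CPM, with 1 at 0, and 270.5 CPM. Its 5 T cell markers were closer, at 45.3 and 38.8 CPM, as were its 5 NK cell markers, at 27.7 CPM, with 1 at 0, and 26.9 CPM, with 3 at 0. Its own 5 markers were at 4407 and 4909 CPM, and the part of the other cells in the Stat4 level was not tested. The receptor gene Il12rb2, whose product signals through STAT4, was also lower in knockout mature DCs (43.95 and 181.3 CPM, -1.93). Il23r stood at 7.44 and 48.2 CPM there (-2.10) but passed the 10 CPM minimum through the WT library alone.

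The Stat4 difference in CD8 T cells depended on how genes and states were weighed. Long genes were higher and short genes lower in the knockout library generally, and Stat4 spans 120042 bases, a longer span than 93.0% of annotated genes. Measured genes of its span decile had a median log2 ratio of 0.61 in CD8 T cells, and with that subtracted Stat4 was at 0.30, within 1.5-fold. The same step moved Stat3, which spans 54443 bases, to -1.21 in CD8 T cells and Stat4 to -2.43 in mature DCs, further from 0 in both cases. In NK cells Stat4 was at a log2 ratio of 0.53, within 1.5-fold. In macrophages Stat4 was low, at 22.4 CPM (198 UMIs) and 6.64 CPM (422 UMIs), a log2 ratio of 1.24. An estimated 13.4 of the 22.4 CPM was free RNA from other cells, and with the estimate subtracted the ratio was 0.62 and the gene fell under the 10 CPM minimum.

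Stat5a and Irf1 were within 1.5-fold in 6 of the 8 types each. Stat5a was highest in mature DCs, at 209.6 CPM (186.9 to 234.3) and 134.4 CPM (120.0 to 150.1), and 1.56-fold higher in the knockout library. Under median-of-ratios scaling this log2 ratio of 0.62 became 0.48, and with each cell weighted equally 0.41, both within 1.5-fold. In CD8 T cells, Stat5a was at 29.5 and 31.5 CPM and its log2 ratio of -0.08 was small. Irf1 was highest in neutrophils, at 904.9 CPM (815.8 to 1001) and 928.5 CPM (843.7 to 1019), where the intervals of the libraries overlapped. Mature DCs came second in both libraries, at 621.5 CPM (581.9 to 663.0) and 440.7 CPM (414.2 to 468.4), a log2 ratio of 0.49. The conventional DC types differed in opposite directions. Irf1 in type 1 conventional DCs stood at 287.5 CPM (274.2 to 301.3) for the knockout and 176.1 CPM (161.4 to 191.6) for the WT library, 1.63-fold higher, although the log2 ratio of 0.69 was 0.51 with each cell weighted equally. In type 2 conventional DCs it was at 227.5 and 324.3 CPM, a log2 ratio of -0.50 that stayed within 1.5-fold. Monocytes (-0.55) were likewise lower and within 1.5-fold. Among knockout types with at least 50 cells, CD8 T cells had the lowest Irf1 (118.7 CPM, 115.1 to 122.4), overlapping B cells (131.3 CPM, 110.9 to 154.3).

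Socs1 was below the WT level in all 8 types and past 1.5-fold in 5 of them, although CD8 T cells turned to 0.16 once the median of genes of like span was subtracted. SOCS1 is the inhibitor best known for shutting off interferon-gamma signalling. Type 2 conventional DCs had 22.5 CPM (19.1 to 26.3) and 82.1 CPM (71.5 to 93.8), a difference of 3.65-fold (2.96 to 4.52). Mature DCs had 14.2 CPM (8.79 to 21.7) and 55.0 CPM (45.9 to 65.4), a difference of 3.88-fold (2.43 to 6.47). In both DC types the intervals of the libraries were far apart. Macrophages had 23.2 CPM (20.2 to 26.6) and 62.7 CPM (60.8 to 64.7), monocytes 36.8 CPM (32.5 to 41.6) and 79.7 CPM (75.1 to 84.5), and NK cells 29.4 CPM (25.7 to 33.5) and 69.0 CPM (57.9 to 81.7). These myeloid and NK differences were 2.70-fold, 2.16-fold and 2.35-fold. All 5 calls held under every alternative that could be computed. Type 1 conventional DCs (-0.58), B cells (-0.45) and CD8 T cells (-0.14) were within 1.5-fold. Among types described by levels alone, regulatory T cells had the opposite order, with 54.8 CPM (45.4 to 65.5) for the knockout and 33.4 CPM (25.5 to 42.9) for the WT library. Socs1 is short, and genes of its span decile had median log2 ratios between -0.46 in macrophages and -0.17 in monocytes.

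With cells thinned to 3000 UMIs, a Socs1 transcript was found in 5.79% (3.62 to 8.71) of knockout and 23.7% (16.7 to 31.9) of WT type 2 conventional DCs. Before thinning the shares were 20.1% and 48.5%. In B cells, whose Socs1 level was among the lowest, the thinned shares were 2.63% and 2.90%. Markers of other cells also differed between the libraries within these gates. The 7 macrophage markers summed to 26.7 CPM in knockout and 234.7 CPM in WT NK cells, and to 41.9 and 217.6 CPM in mature DCs, with none at 0. In type 2 conventional DCs, the 6 monocyte markers summed to 982.1 CPM, with 1 of them at 0, and 1647 CPM, with none at 0, whereas the macrophage markers there summed to 339.8 and 274.9 CPM. In macrophages the monocyte markers were at 1691 and 728.4 CPM and the 5 markers of type 2 conventional DCs at 229.1 and 45.9 CPM, higher in the knockout library. The part of such cells in the Socs1 values was not tested beyond the estimate of free RNA. With that estimate subtracted, Socs1 was at -1.13 in NK cells, -1.67 in mature DCs and -1.69 in type 2 conventional DCs.

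Socs3, like Socs1, was past 1.5-fold lower in monocytes, type 2 conventional DCs and NK cells, while in macrophages and mature DCs it was within 1.5-fold. SOCS3 restrains signalling through the interleukin-6 receptor chain gp130. Knockout monocytes had 63.2 CPM (57.4 to 69.3) and WT monocytes 167.5 CPM (160.9 to 174.4), a difference of 2.65-fold (2.40 to 2.94). Type 2 conventional DCs had 42.2 CPM (37.5 to 47.3) and 108.7 CPM (96.5 to 122.1), a difference of 2.58-fold. Macrophages were closer, at 71.0 CPM (65.5 to 76.7) in the knockout library and between 97.6 and 102.5 CPM in the WT library, a log2 ratio of -0.47 within 1.5-fold. The median of genes of the same span decile in macrophages was -0.46. Neutrophils had the highest Socs3 level in both libraries, 252.7 CPM (206.7 to 305.9) and 447.4 CPM (389.2 to 511.8). NK cells had little Socs3, 8.12 CPM (63 UMIs) and 21.0 CPM (41 UMIs), and passed the 10 CPM minimum only through the WT library (-0.98). In B cells the direction was the opposite, with 35 UMIs (31.3 CPM) in the knockout and 2 UMIs (2.11 CPM) in the WT library, a ratio of 14.8 (3.81 to 127). Only 4.24% of knockout B cells held any of those UMIs, and with double the gate margin the log2 ratio of 2.35 was 0.30.

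Genes of tissue dissociation and immediate early response also differed between the libraries in these types. Of 19 such genes, 12 were higher and 1 lower in monocytes (16% and 10.5% of all measured genes there), and 14 were higher and 0 lower in macrophages (15.9% and 16%), with list medians of 0.89 and 1.57. In type 2 conventional DCs 11 of 19 were higher and 1 lower (15.5% and 8.49% of all genes; median 0.84), and in type 1 conventional DCs 11 of 18 were higher and 1 lower (13.2% and 6.02%; median 0.95). In NK cells 0 were higher and 11 of 16 measured were lower (8.17% and 5.27% of all genes), and in mature DCs 3 of 17 were higher and 5 lower (21.7% and 14.8%). The part of dissociation in the levels of the 8 genes was not tested.

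Cish, an inhibitor of interleukin-2 receptor signalling that STAT5 induces, was highest in regulatory T cells and CD4 T cells. The exception was a group of 43 knockout cells with markers of type 2 innate lymphoid cells, at 177.0 CPM (144.0 to 215.3), which had only 1 WT counterpart. Regulatory T cells had 99.5 CPM (86.7 to 113.6) and 60.0 CPM (49.3 to 72.5) in the knockout and WT libraries, and CD4 T cells 65.1 CPM (60.3 to 70.1) and 72.9 CPM (52.5 to 98.5). Thus the intervals of the libraries were apart in regulatory T cells and overlapped in CD4 T cells. CD8 T cells had 31.0 CPM (29.1 to 32.9) and 20.7 CPM (19.5 to 22.1), a log2 ratio of 0.48 within 1.5-fold. With the median of its span decile subtracted, the step that ended the Stat4 call in these cells, Cish was at 0.75, past 1.5-fold, and with cells thinned it was at 0.18. DCs of the knockout library had less Cish. In type 2 conventional DCs it was at 9.80 CPM (68 UMIs) and 41.8 CPM (110 UMIs), 4.27-fold lower (3.13 to 5.86), and in mature DCs at 4.73 CPM (7 UMIs) and 24.3 CPM (57 UMIs), 5.14-fold lower (2.34 to 13.4). Both DC types passed the 10 CPM minimum only through the WT library. Macrophages had more Cish in the knockout library, 13.6 CPM (120 UMIs) and 4.41 CPM (280 UMIs), but were under the minimum in the mean. No Cish UMI was found in WT B cells, where 3 UMIs would be 3.16 CPM.

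Socs2 marked mature DCs in both libraries. The knockout library had 516.6 CPM (480.6 to 554.6) there and the WT library 471.8 CPM (444.4 to 500.5), a log2 ratio of 0.13. Thinned shares of mature DCs with a Socs2 transcript were 67.0% (57.0 to 75.9) and 73.7% (66.1 to 80.4), against 0.625% and 0.626% in CD8 T cells. Before thinning they were 88.8% and 93.0% of mature DCs and 3.28% and 2.97% of CD8 T cells. Regulatory T cells came second in the knockout library with 63.9 CPM (53.7 to 75.4) and had 18.9 CPM (13.1 to 26.4) in the WT library. Of the remaining types with a ratio, only NK cells reached 10 CPM in the mean (15.6 and 5.63 CPM, 121 and 11 UMIs, 0.96), through the knockout library alone. With cells thinned that ratio was 0.36, within 1.5-fold.

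**Figure D1:**
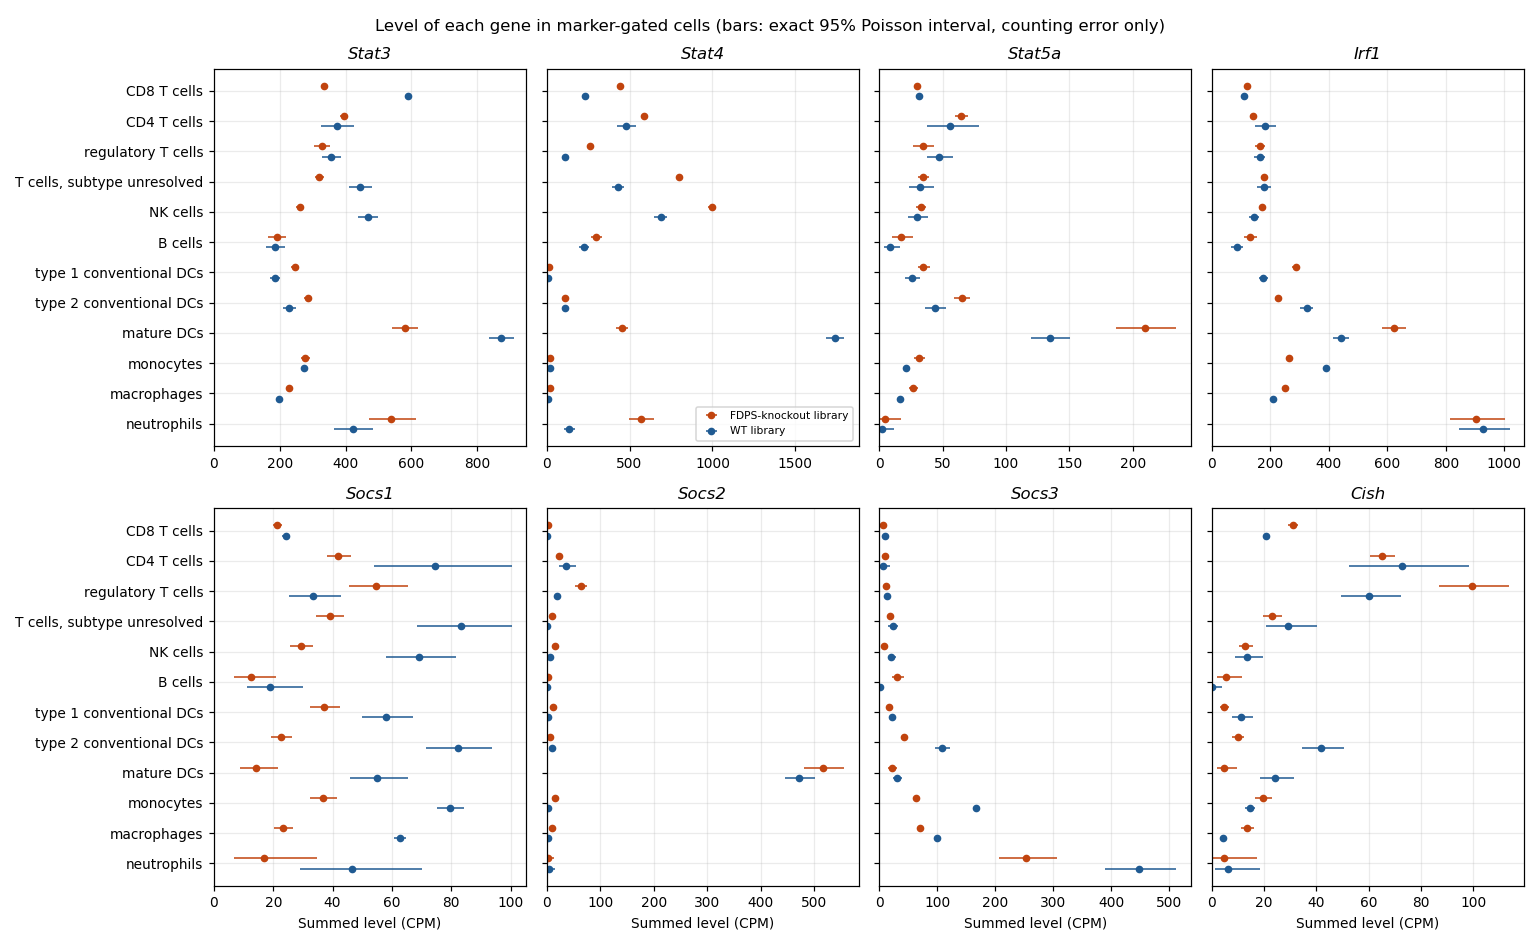
Level of each gene (x axis, summed CPM) in 12 groups of gated cells (y axis), with the knockout library in orange and the WT library in blue; bars are exact 95% Poisson intervals of counting error. Socs2 stands apart in mature DCs in both libraries (516.6 and 471.8 CPM), Stat4 in mature DCs of the WT library (1737 CPM), and Socs1 lies further right in the WT library except in regulatory T cells.

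Counted by cell type, mature DCs had 4 and type 2 conventional DCs and NK cells 3 members past 1.5-fold lower, set here beside the share of all measured genes that was called. In type 2 conventional DCs 3 of 7 measured members were lower (Socs1, Socs3 and Cish) and 0 higher, where 8.49% of 8312 measured genes were lower and 15.5% higher. In mature DCs 4 of 8 were lower (Stat3, Stat4, Socs1 and Cish) and 1 higher (Stat5a), where 14.8% of 7550 genes were lower and 21.7% higher. The member medians, which include Cish, were -0.50 and -0.49, against 0.11 and 0.13 over all genes measured in these types. All genes are not matched to the members in span. Medians of the members' span deciles ran from -0.35 (Socs1) to 0.49 (Stat4) in type 2 conventional DCs and from -0.41 to 0.50 in mature DCs. In NK cells 3 of 8 were lower (Stat3, Socs1 and Socs3) and 1 higher (Socs2), with 5.27% and 8.17% of genes lower and higher. Cish in both DC types and Socs3 and Socs2 in NK cells passed the minimum through 1 library alone. The minimum itself thus favoured a difference in those entries, and they lend no support to the counts or to the DC medians.

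CD8 T cells had 1 of 6 measured members lower (Stat3) and 1 higher (Stat4), with 7.2% of genes lower and 17.5% higher, and member and gene medians of 0.01 and 0.14. Monocytes had 2 of 7 lower and 0 higher (10.5% and 16% of genes). Macrophages had 1 of 6 lower (Socs1) and 1 higher (Stat4), with 16% and 15.9% of genes; Stat4 passed the minimum there through the knockout library alone. Taken as 1 class, monocytes and macrophages had 2 of 7 lower (Socs1 and Socs3) and 3 higher (Stat4, Stat5a and Cish), where 14.5% and 15.2% of genes were lower and higher. Stat4 and Cish passed the 10 CPM minimum there through the knockout library alone. The count of 5 depended on the gate and the weighting and ran from 2 to 6 over the alternatives. Taken as 1 class, type 1 and type 2 conventional DCs had 3 of 7 lower (Socs1, Socs3 and Cish) and 0 higher (5.82% and 11.9%). Cish, at 7.38 and 25.4 CPM in that class, passed the minimum through the WT library alone. In type 1 conventional DCs 1 of 6 was higher (Irf1) and 0 lower (13.2% and 6.02%). B cells had 3 of 6 higher (Stat5a, Irf1 and Socs3) and 0 lower, with 16.1% and 8.51% of genes higher and lower. Stat5a and Socs3 passed the minimum through the knockout library alone, with 8 and 2 WT UMIs, and Irf1 was at 0.15 with each cell weighted equally.

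**Figure D2:**
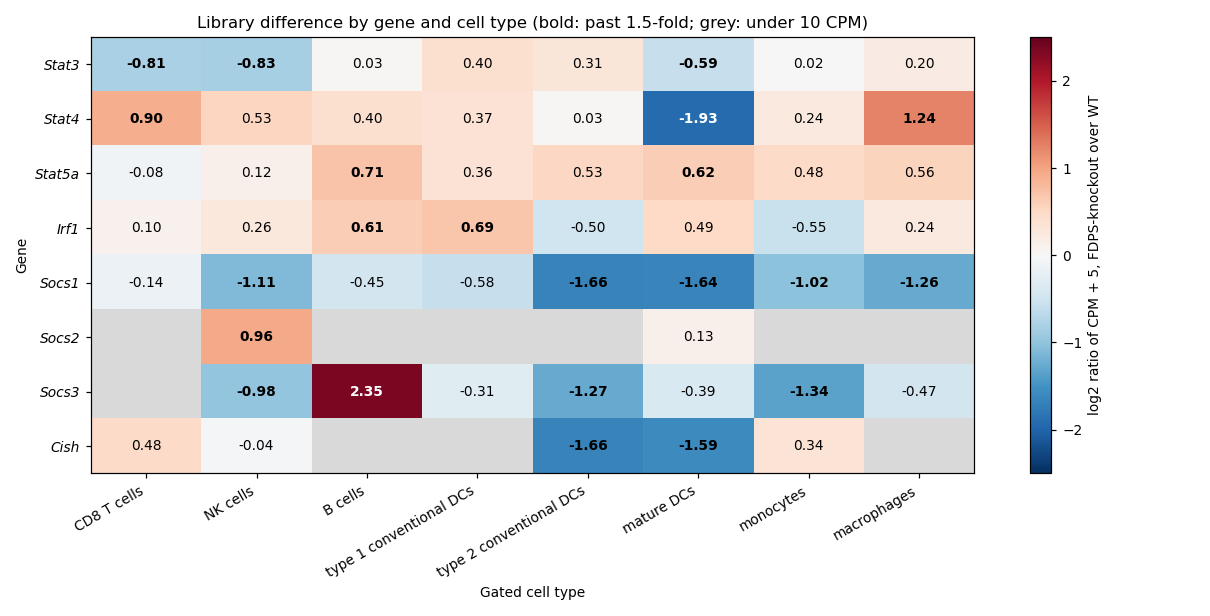
Log2 ratio of CPM plus 5, knockout over WT, for each gene (rows) and gated cell type (columns), with red for higher and blue for lower in the knockout library, bold for past 1.5-fold and grey for under 10 CPM. The Socs1 row is negative in all 8 types, from -0.14 in CD8 T cells to -1.66 in type 2 conventional DCs, and the Stat4 row runs from -1.93 to 1.24.

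The makeup of the CD8 T cells differed between the libraries, and Stat3 was lower in the knockout library among dividing cells and among non-dividing cells without Tcf7. Dividing cells, with at least 3 of 5 cell cycle genes detected, made up 30.6% of knockout and 55.2% of WT CD8 T cells. Cells with a transcript of Tcf7, a transcription factor of naive and memory T cells, that were not dividing made up 25.8% (505 cells) and 4.09% (73 cells). These shares were called on whole cells, which were deeper in the WT library (median 22235.5 against 13394.5 UMIs). Called on cells thinned to 3000 UMIs, dividing cells were 15.5% (13.9 to 17.2) and 27.1% (25.1 to 29.3), and Tcf7-positive non-dividing cells 19.3% (17.6 to 21.2) and 2.85% (2.12 to 3.73). The thinned shares kept that order; in monocytes and macrophages, taken as background for Tcf7, they were 0.779% and 0.105%. Stat3 was at 319.1 and 549.9 CPM in dividing cells, 251.8 and 428.0 CPM in Tcf7-positive and 406.4 and 721.3 CPM in Tcf7-negative non-dividing cells. Its log2 ratios in these states were -0.78, -0.75 and -0.82. With states called on thinned cells they were -0.71, -0.23 and -0.77, so the Tcf7-positive value, which then rested on 45 WT UMIs from 50 cells, was within 1.5-fold. Stat4 behaved differently: at log2 ratios of 0.49, 0.34 and 0.91 in the same states, it was past 1.5-fold only in the Tcf7-negative non-dividing cells, and so it was with states called on thinned cells (0.52, 0.51 and 0.77). Weighting the states equally gave 0.53 for Stat4, within 1.5-fold. In both libraries Stat4 was highest in the Tcf7-positive cells (754.0 CPM, 732.0 to 776.6, and 596.5 CPM, 541.5 to 655.4) and lowest in the dividing cells. Cish was highest in Tcf7-negative non-dividing cells, at 55.2 CPM (50.9 to 59.9) and 34.1 CPM (30.8 to 37.6), past 1.5-fold at 0.62 but 0.39 with thinned states. Its 0.63 in Tcf7-positive cells rested on 6 WT UMIs and was -0.14 with thinned states. Socs1 was highest in Tcf7-positive cells, at 38.1 CPM (33.2 to 43.4) and 56.6 CPM (40.6 to 76.8), and at log2 ratios between -0.52 and -0.32 in the 3 states, or between -0.59 in dividing and -0.06 in Tcf7-negative cells with thinned states. Cells with Gzmc, Gzmd, Gzme or Gzmf, granzyme genes of activated cytotoxic cells, were 30 knockout and 710 WT cells. Their thinned shares were 0.26% (0.085 to 0.606) and 19.0% (17.1 to 20.9), against 0% of 1027 (exact upper limit 0.359%) and 1.55% of 3801 monocytes and macrophages. Stat3 was at 340.8 CPM (304.6 to 380.2) and 648.9 CPM (639.2 to 658.8) in the whole cells with these granzymes.

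**Figure D3:**
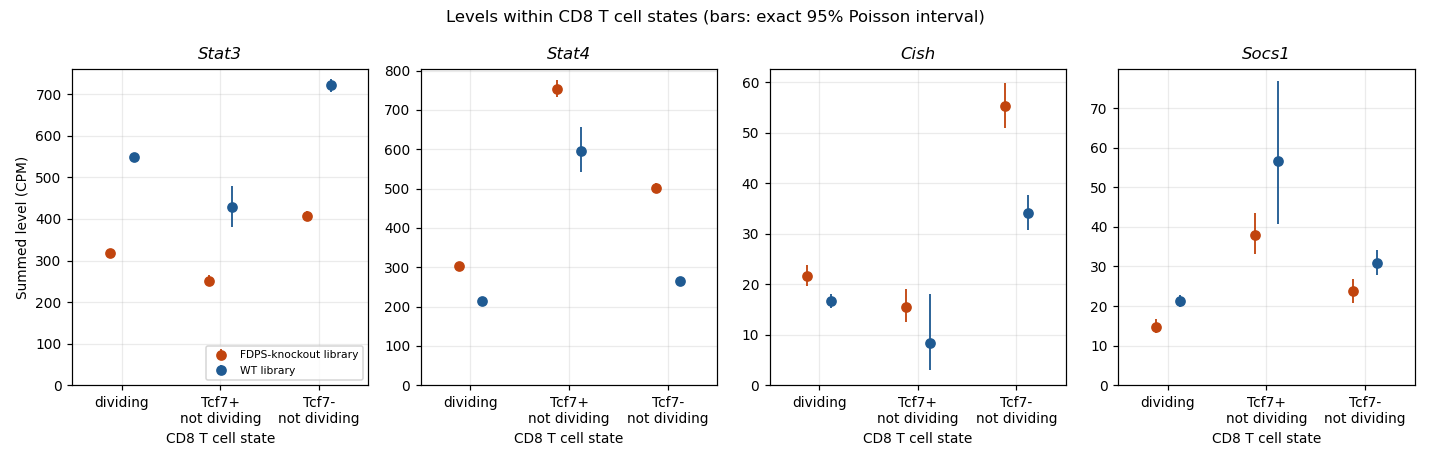
Summed level (y axis, CPM) of Stat3, Stat4, Cish and Socs1 in 3 states of CD8 T cells (x axis), with the knockout library in orange, the WT library in blue and exact 95% Poisson intervals as bars. With states called on whole cells, as plotted, Stat3 lies lower in the knockout library in each, and Stat4 is highest in Tcf7-positive cells of both libraries.

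Monocytes and macrophages with a transcript of Cxcl9, a chemokine gene induced by interferon-gamma, were then set beside those without one, on cells thinned to 3000 UMIs. Cxcl9 was detected in 22.1% (19.6 to 24.8) of 1027 knockout and 39.5% (38.0 to 41.1) of 3801 WT cells of this class, and in 30.5% and 57.8% before thinning. In CD8 T cells, taken as background, it was detected in 1.25% and 3.13% (5.32% and 15.6% before thinning). Neutrophils had it in 1.35% (0.034 to 7.30) of knockout and 10.4% (5.11 to 18.3) of WT cells. In the knockout library Irf1 was at 500.7 CPM (449.0 to 556.8) in cells with Cxcl9 and 208.8 CPM (190.9 to 227.9) in those without. Socs1 was at 82.2 CPM (62.1 to 106.8) and 14.2 CPM (9.81 to 19.8) and Socs3 at 121.9 CPM (97.1 to 151.1) and 49.6 CPM (41.1 to 59.3). Stat3, at 274.6 and 257.9 CPM, had overlapping intervals. In the WT library the gap between the cell groups was narrower, with Socs1 at 83.2 CPM (75.0 to 92.1) and 63.7 CPM (57.8 to 69.9), Irf1 at 305.8 and 277.2 CPM, and Socs3 at 132.9 and 128.3 CPM. Stat3 in the WT library was lower in cells with Cxcl9, at 227.7 CPM (214.0 to 242.1) against 266.5 CPM (254.4 to 279.0). The libraries' intervals for Socs1 and Socs3 thus overlapped in cells with Cxcl9 and lay apart in cells without it. Those for Irf1 lay apart in both, with the knockout library higher in cells with Cxcl9 and lower in cells without it. The difference between the gaps of the libraries was not tested. Cells that lost their Cxcl9 transcripts in thinning were placed with those without it. The share with Cxcl9 fell from 57.8% to 39.5% in the WT and from 30.5% to 22.1% in the knockout library. The part of this loss in the gaps was not tested. Macrophages made up 146 of 227 knockout and 1242 of 1502 WT cells with Cxcl9. Of all thinned cells in the class they were 591 of 1027 and 2683 of 3801. WT macrophages had less Irf1, Socs1, Socs3 and Stat3 than WT monocytes, with Stat3 at 198.9 and 274.5 CPM. The part of this makeup in the gaps was not tested.

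**Figure D4:**
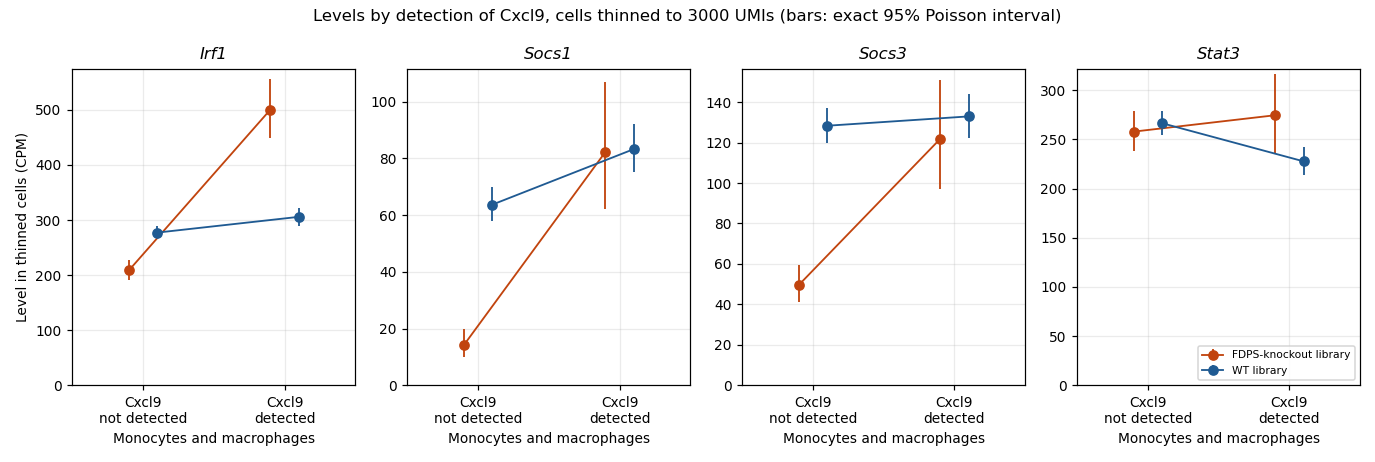
Level (y axis, CPM in cells thinned to 3000 UMIs) of Irf1, Socs1, Socs3 and Stat3 in monocytes and macrophages without and with a Cxcl9 transcript (x axis), with the knockout library in orange, the WT library in blue and exact 95% Poisson intervals as bars. Socs1 intervals of the libraries overlap in cells with Cxcl9 (82.2 and 83.2 CPM) and lie apart in cells without it (14.2 and 63.7 CPM).

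Type 1 conventional DCs gave the same order for Irf1 and Socs1. In the knockout library, Irf1 was at 481.1 CPM (407.9 to 563.7) in 106 cells with Cxcl9 and 145.3 CPM (112.8 to 184.2) in 156 without, and Socs1 at 69.2 CPM (43.4 to 104.7) and 15.0 CPM (6.01 to 30.8). In the WT library, with 27 and 99 cells, Irf1 was at 345.7 and 144.8 CPM and Socs1 at 148.1 CPM (76.5 to 258.8) and 53.9 CPM (30.8 to 87.5). Irf1 was thus nearly equal in the libraries' cells without Cxcl9, at 145.3 and 144.8 CPM, while 40.5% (34.5 to 46.7) of knockout and 21.4% (14.6 to 29.6) of WT cells had a Cxcl9 transcript. Before thinning the shares were close, 53.3% and 53.8%, so thinning placed a larger part of the WT cells among those without Cxcl9.

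T cells were divided likewise by a transcript of Il2ra, the high-affinity chain of the interleukin-2 receptor. It was found in 7.29% (6.17 to 8.54) of knockout and 17.2% (15.5 to 19.0) of WT CD8 T cells, and in 19.8% and 45.9% before thinning. In monocytes and macrophages, taken as background, the thinned shares were 0.682% and 0.552%. In knockout CD4 T cells, those with Il2ra (60 cells) had Cish at 216.7 CPM (154.1 to 296.2) and those without at 62.5 CPM (52.0 to 74.4). Stat5a was at 161.1 CPM (107.9 to 231.4) and 42.0 CPM (33.5 to 52.0) and Socs2 at 83.3 CPM (46.6 to 137.4) and 23.5 CPM (17.3 to 31.2) in the same cells. There Cish, Stat5a and Socs2 were therefore higher beside Il2ra, with intervals apart, while Stat4 was at 522.2 and 682.7 CPM. Only 5 WT CD4 T cells had Il2ra. In knockout regulatory T cells the intervals overlapped for Cish (134.0 and 95.2 CPM), Stat5a (44.7 and 28.6 CPM) and Socs2 (96.2 and 42.9 CPM). In WT ones they overlapped too, with Cish (106.1 and 48.6 CPM) and Socs2 (30.3 and 20.8 CPM) higher beside Il2ra and Stat5a (53.0 and 69.4 CPM) lower. Socs2 in CD8 T cells was at 2.38 and 2.25 CPM in the knockout and 4.42 and 1.83 CPM in the WT library. In CD8 T cells Cish was at 59.5 CPM (38.5 to 87.9) with and 33.7 CPM (28.9 to 39.0) without Il2ra in the knockout library, and at 26.5 CPM (16.97 to 39.4) and 31.8 CPM (26.8 to 37.6) in the WT library. Stat3 and Stat4 were both higher beside Il2ra in the CD8 T cells of both libraries. Stat4 was at 619.0 CPM (546.1 to 699.0) with and 516.6 CPM (497.5 to 536.2) without it for the knockout, and 337.7 CPM (301.0 to 377.8) and 263.5 CPM (248.5 to 279.1) for the WT library. Stat3 was at 485.7 CPM (421.3 to 557.1) with and 349.2 CPM (333.6 to 365.5) without it for the knockout, and 881.9 CPM (821.8 to 945.2) and 578.2 CPM (555.9 to 601.2) in the WT library.

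Other genes of the pathway were read from lists that included further inhibitors, receptors and ligands. Of the receptors, 6 of 19 measured were higher and 2 lower in CD8 T cells, where 17.5% and 7.2% of all genes were, so that the lower ones were near the share over all genes. Il7r, the interleukin-7 receptor gene of resting T cells, was at 144.2 and 37.3 CPM there (1.82), and Ifnar2 at 94.2 and 28.2 CPM (1.58). The lower receptors were Il12rb2 (26.8 and 84.8 CPM, -1.50) and Il2ra (34.6 and 102.4 CPM, -1.44), both of activated T cells. Ifng, the interferon-gamma gene and the only ligand measured in CD8 T cells, was at 140.8 and 289.9 CPM (-1.02), while Ccnd3, a cyclin gene, was at 444.5 and 107.2 CPM (2.00). In NK cells Il7r (1.58) and Ccnd3 (1253 and 621.8 CPM) were again higher, and Cxcl10 (10.8 and 86.9 CPM, -2.54), Gadd45g (-2.11) and Irf8 (-1.22) were lower. The 7 macrophage markers summed to 26.7 and 234.7 CPM in the NK gate, and the part of other cells in these values was not tested.

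Single genes that cytokines are known to regulate differed in the myeloid types. Cd274, the gene of PD-L1, was at 166.0 and 581.2 CPM in monocytes (-1.78) and 104.2 and 260.8 CPM in type 2 conventional DCs (-1.28). Cxcl9 was at 774.9 and 269.7 CPM in type 1 conventional DCs (1.51) and at 701.9 and 229.1 CPM in mature DCs (1.59). Mature DCs also had more Ciita (269.1 and 79.3 CPM, 1.70), the master regulator of class II genes, and values of 102.1 and 8.11 CPM for Il27 (3.03) and 6.09 and 33.3 CPM for Il6 (-1.79). In monocytes the widest differences were in Lifr (165.2 and 14.6 CPM, 3.12), Socs6 (181.7 and 34.4 CPM, 2.24) and Il6 (31.5 and 3.24 CPM, 2.15) above, and in Bcl2l1 (30.9 and 158.6 CPM, -2.19) and Il7r (38.8 and 190.5 CPM, -2.16) below. Macrophages had more Ciita (305.1 and 51.2 CPM, 2.46) and values of 4.31 and 23.8 CPM for Il10 (-1.63). Il27 and Il6 in mature DCs, Il6 in monocytes and Il10 in macrophages passed the 10 CPM minimum through 1 library alone, which itself favoured a difference.

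Over the 16 sums of 8 types and 2 libraries, the genes whose log2 level was most like that of a member were ranked by Pearson's r among 11340 genes, as a description. For Irf1 they were Gbp5 (0.96), Spred3 (0.94) and Gsdmd (0.94), and for Socs3 Cxcl10 (0.93), Lilrb4a (0.93) and 2310022B05Rik (0.92). Stat4 was closest to Arap2 (0.95) and Stat5a to Ift57 (0.97), and Stat3 had Il2ra (0.89) among its nearest 3. Socs1 was closest to Dnajc4 (0.90), and Socs2 to Gm50069 (0.96) and Fscn1 (0.95), which is a mature DC marker of the gate. Cish had no close match, S100a6 at 0.74 being the nearest. Among the members themselves, Stat5a and Socs2 were the most alike (0.89) and Stat4 and Socs3 the least (-0.53). The sums share libraries and depth, and a few types such as mature DCs set the high values.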

How the data were processed

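The authors deposited 1 matrix of raw UMI counts per library. Per the file headers, the software was Cell Ranger 7.2.0, and the submitters' processing notes name mm10. Whether introns were counted was not stated in any source used here. Cells with at least 200 genes and under 10% mitochondrial UMIs were kept, and the highest Scrublet scores were removed as doublets at a rate of 0.8% per 1000 barcodes (635 and 820 cells), since its automatic threshold marked 0% and 1.53% of cells. Each cell was scored on marker lists and named where its top score led by 0.1 and rested on at least 3 detected markers, so each cell type name means cells that passed this gate. UMIs were summed per type and library with Python 3.11.15, numpy 2.4.6, scipy 1.17.1, pandas 2.3.3 and scanpy 1.11.5. The ratios, the 10 CPM minimum and the calls were run on simulated summed counts with planted differences. The cell filters, the gate and the summing over cells were not tested in this way. Free RNA was estimated from genes of other cell types, and spans came from GENCODE vM21. Ratios of all members were computed in every type with at least 100 cells per library, and not every value is given in the text. Of the pathway lists, the 3 widest differences each way past 1.5-fold were taken, and some of these were left out for length. The alternatives covered scaling, the pseudocount, filters, doublets, the gate, weighting, thinning, free RNA and gene span. The regulatory T cell comparison that had been planned was not made, because the WT library held 93 such cells. The members and lists were chosen with earlier results of these data known. Part of the pathway's genes is not reported here.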

Additional observations from a re-analysis of the deposited data

Results flagged for a closer look

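Stat4 and Socs3 had log2 ratios of opposite sign in different cell types. Stat4 had a log2 ratio of 1.24 in macrophages and -1.93 in mature DCs. The macrophage value rested on a level of 22.4 CPM in the knockout and 6.64 CPM in the WT library, and the mature DC value on 453.7 and 1737 CPM. Socs3 had a log2 ratio of 2.35 in B cells, from 35 and 2 UMIs, and of -1.34 in monocytes, from 439 and 2376 UMIs. Both higher values passed the 10 CPM minimum through the knockout library alone. Both also lost their call: Stat4 in macrophages was at 0.62 and under the minimum with free RNA subtracted, and Socs3 in B cells was under it at 0.30 with double the gate margin, 0.94 with each cell weighted equally and 0.76 with cells thinned. The differences between cell types were not tested, because each group had 1 library.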

How the results depend on the processing

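Of 30 called log2 ratios over whole cell types, 16 kept their call under every alternative that could be computed and 0 reversed. The 30 include the pooled classes of monocytes and macrophages and of conventional DCs beside the types they hold. Cells of those types thus entered more than once, and the 30 are not separate results. The number of members past 1.5-fold was 2 in CD8 T cells, 4 in NK cells and 3 in all conventional DCs, and moved by at most 1 under any alternative. In monocytes and macrophages as 1 class the number was 5. It was 2 with double the gate margin, 3 with each cell weighted equally, 3 with the span decile subtracted and 3 with monocytes and macrophages weighted equally, an alternative chosen after seeing the data. Calls were also lost for Stat4 in CD8 T cells, Socs2 in NK cells, Socs3 in conventional DCs together (-0.54 with double the gate margin), Stat4 in macrophages, Stat3 and Stat5a in mature DCs, Irf1 in type 1 conventional DCs (0.51 at the lowest), and Stat5a, Irf1 and Socs3 in B cells. With CD8 T cell states called on thinned cells, also chosen after seeing the data, Cish in Tcf7-positive cells went from 0.63 to -0.14. Scaling by the median ratio moved Irf1 in CD8 T cells from 0.10 to -0.05, where the median of all genes was 0.14. The cause of these changes was not tested. With double the gate margin, type 2 conventional DCs and mature DCs had under 100 cells in a library and gave no value, and likewise type 1 conventional and mature DCs with a 5% mitochondrial limit and type 1 conventional DCs without dividing cells. No paired analysis was possible because each group had 1 library, and for the same reason no replicate could be left out. Depth limits the values that rest on few UMIs, such as Cish in mature DCs (7 and 57) and Socs3 in B cells (35 and 2).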
